A study of Mus musculus with 11 samples.

Results

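The slow, fast and cardiac troponins are 7 genes, Tnnc1, Tnnc2, Tnni1, Tnni2, Tnnt1, Tnnt2 and Tnnt3, and they were taken by symbol from the probe annotation. They were measured by 11 probe sets that carry 1 of these symbols alone, of 45037 probe sets that are not controls, and they are 7 of 18193 genes on the array. Tnni2 and Tnnt2 had 3 probe sets each and the other genes 1 each. The cells were sorted from muscle of Pax3GFP/+ mice of strain C57BL/6J, in which green fluorescent protein (GFP) is made from the Pax3 locus, so the animals of every age are heterozygous at Pax3. Cells positive for GFP and negative for the dead-cell dye propidium iodide were collected by flow cytometry. The labels give trunk muscle with proliferating satellite cells at postnatal day 1 (P1, n = 4 arrays) and day 12 (P12, n = 4), and abdominal, pectoral and intercostal muscle with satellite cells at day 28 (P28, n = 3). In the labels, the internal sample names of the P28 arrays begin with the code used for P1 and carry another year than those of the earlier ages, while title, tissue and age all give P28 and were followed, so every P28 value rests on those labels. With this, age, muscle, the label of the cells as proliferating or not, and batch coincide there and cannot be told apart. The arrays are called biological replicates, and the number of animals behind each is not given in the sources used here.

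Troponin is the calcium switch of striated muscle. On the thin filament, troponin C binds calcium, troponin I holds the actin site closed at rest, and troponin T ties the complex to tropomyosin. Slow and fast fibres use different genes for each subunit: Tnnc1, Tnni1 and Tnnt1 in slow fibres, Tnnc2, Tnni2 and Tnnt3 in fast fibres. Tnnc1 also serves the heart. Tnnt2 is the cardiac troponin T and is known from developing skeletal muscle, where fast and slow forms later take its place. Satellite cells lie beside the fibres as stem cells and have no sarcomeres of their own when quiescent.

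The bright fast troponin probe sets were higher at P28 than at P1 and P12, and the cardiac and developmental troponin T was lower at P28 than at P1. The RNA level of Tnni2 rose 3.58-fold on its brightest probe set and 8.74-fold on another, and that of Tnnt3 6.82-fold in P28 against P12, while Tnnt2 was 2.66-fold to 2.76-fold lower in P28 than in P1 on its bright probe sets. Between P1 and P12, 0 of 11 troponin probe sets rose and 2 fell, both of Tnnt2, where 3.25% of all probe sets rose and 1.59% fell at an adjusted p under 0.05. The slow genes were mixed: Tnnc1 rose at P28, Tnni1 rose in P28 against P12, and Tnnt1 did not pass in any comparison as fitted here, though it did under some alternatives given at the end.

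The arrays had medians from 5.50 to 5.58 on the log2 scale, and the bacterial Trp control probe sets, a mark of background, averaged 3.36 to 3.64. The lowest value of an array was 1.65 to 2.09 at P28 and -0.78 to 0.48 at P1 and P12. The bottom of the scale thus differed at P28, and its effect on dim probe sets was not tested. All 12 satellite cell markers were above a log2 value of 5 at every age (0 below it). Arrays of 1 age correlated at 0.981 to 0.994. Gapdh is read by control probe sets at its 3' and its 5' end, and the log2 gap between them grows as RNA is lost from the 5' end. It ran from 1.62 to 2.79 at P1, from 1.32 to 3.05 at P12 and from 0.79 to 0.99 at P28, so it moved with age. Replicates 1 and 2 of P1 and P12 (called array set 1 here) were above replicates 3 and 4 (array set 2) in this measure. The array sets are a grouping by replicate number and not a documented batch. In bulk samples, fewer cells of a type and less RNA per cell cannot be told apart.

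The promoter windows of a slow and a fast gene of the same subunit, Tnnc1 and Tnnc2, and of Tnnt2 (the first of its 2 starts), the gene that fell, are shown for comparison of genes that moved alike or apart. Each runs from 250 bases before to 50 bases after a RefSeq start in build GRCm38.p6 and is 300 bases long. Capitals mark E-boxes (CANNTG, the core bound by the MyoD family) and MCAT motifs (CATTCC, bound by TEAD factors), searched on both strands.
Tnnc1, chr14:31208062-31208361, plus strand: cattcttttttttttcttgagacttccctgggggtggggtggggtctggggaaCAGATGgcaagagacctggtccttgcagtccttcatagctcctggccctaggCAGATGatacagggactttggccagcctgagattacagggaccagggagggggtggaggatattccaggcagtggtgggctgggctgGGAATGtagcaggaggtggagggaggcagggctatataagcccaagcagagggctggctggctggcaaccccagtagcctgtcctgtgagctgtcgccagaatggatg
Tnnc2, chr2:164779685-164779984, minus strand: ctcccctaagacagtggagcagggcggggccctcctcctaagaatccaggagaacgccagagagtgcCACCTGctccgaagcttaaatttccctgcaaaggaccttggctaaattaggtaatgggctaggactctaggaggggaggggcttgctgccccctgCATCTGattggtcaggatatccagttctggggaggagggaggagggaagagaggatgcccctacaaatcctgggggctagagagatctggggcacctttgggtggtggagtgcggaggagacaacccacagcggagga
Tnnt2, chr1:135836084-135836383, plus strand: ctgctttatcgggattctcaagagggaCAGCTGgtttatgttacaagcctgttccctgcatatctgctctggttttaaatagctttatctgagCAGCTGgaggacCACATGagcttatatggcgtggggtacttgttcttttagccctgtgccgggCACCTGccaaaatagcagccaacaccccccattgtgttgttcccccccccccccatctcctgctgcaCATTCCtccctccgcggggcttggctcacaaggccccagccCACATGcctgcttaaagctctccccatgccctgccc
The Tnnc1 window held 2 E-boxes and 1 MCAT motif, the Tnnc2 window 2 E-boxes and 0 MCAT motifs, and this Tnnt2 window 5 E-boxes and 1 MCAT motif, and 0 of these overlapped. The window at the second Tnnt2 start held 2 E-boxes and 0 MCAT motifs. Of all 32851 promoter windows of this length, 72.3% held an E-box and 14.7% an MCAT motif. The MEF2 and CArG motifs, searched by their usual forms and found in 3.19% and 1.63% of all windows, had 0 matches in the 7 windows of troponin genes. Windows were listed for 5 of the 7 genes, with 2 starts each for Tnni1 and Tnnt2. Tnni2 and Tnnt3 are named only. Matches describe these letters and not bound sites.

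**Figure D1:**
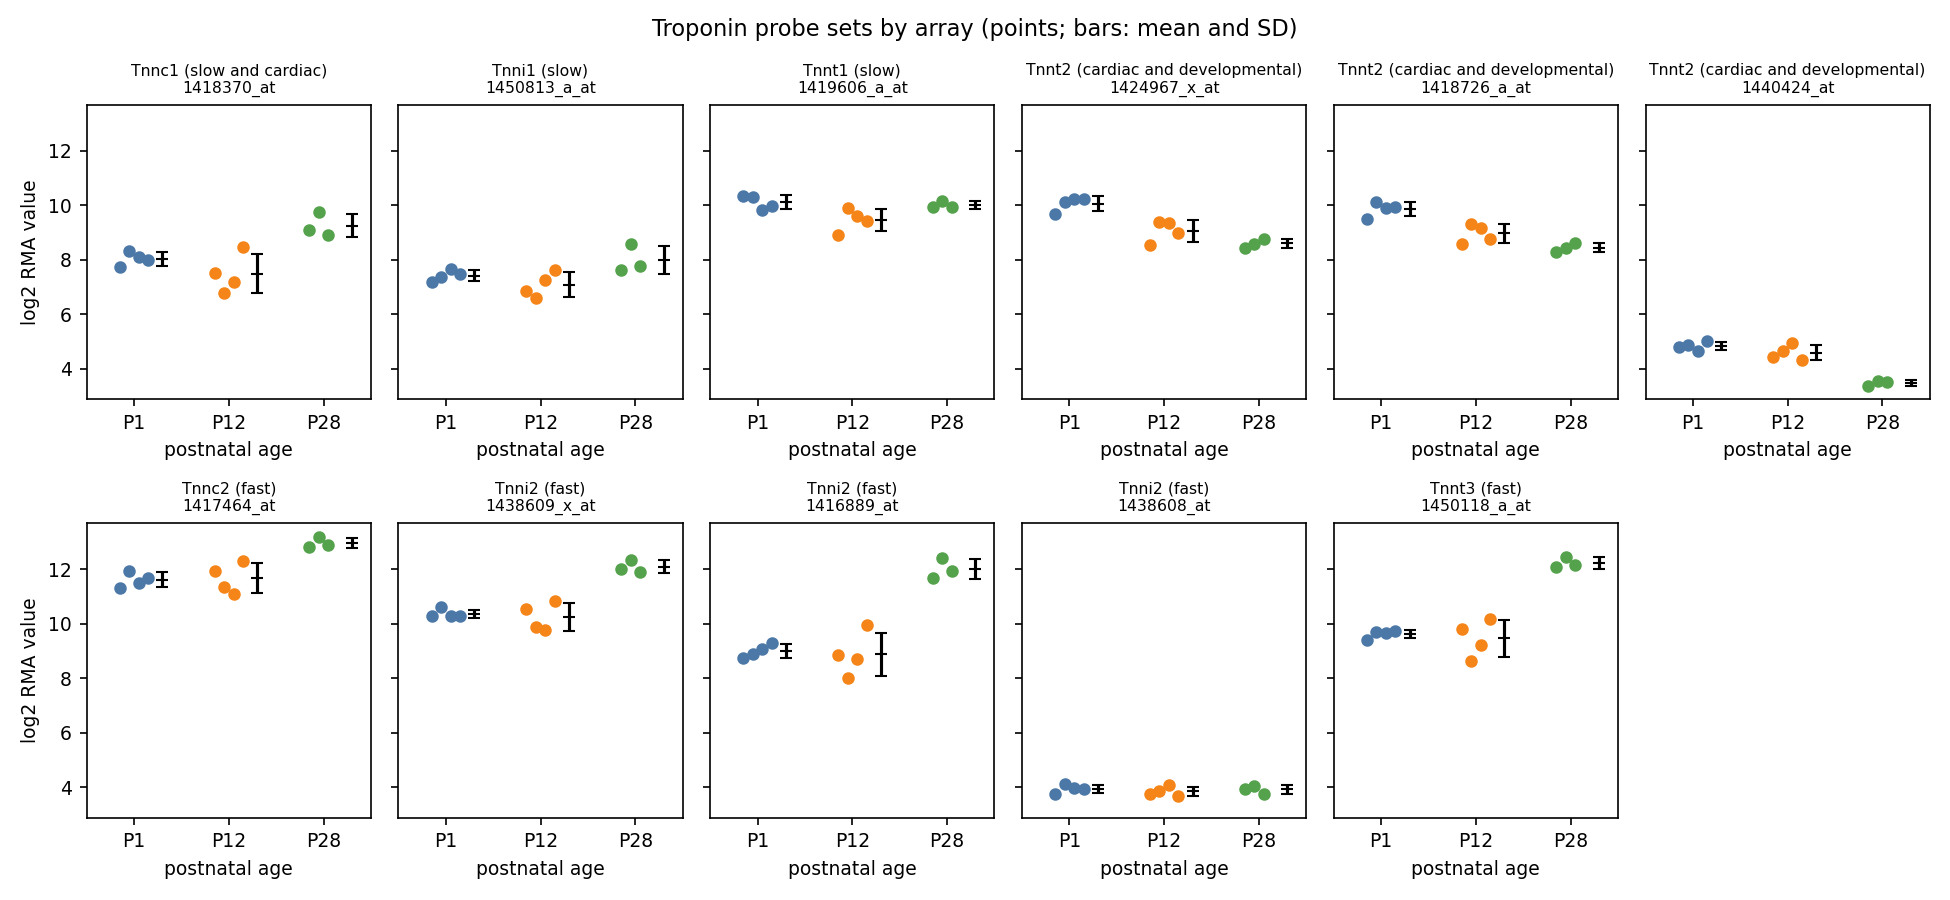
Log2 RMA value of each troponin probe set (y axis) at P1, P12 and P28 (x axis). Points are arrays (n = 4, 4 and 3), and the bars beside them give the mean and SD. The fast genes in the lower row sit highest at P28 except for the dim probe set 1438608_at, and the Tnnt2 probe sets in the upper row sit lowest there.

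Tnnc1, the calcium-binding subunit of slow and cardiac troponin, was at 7.73, 8.32, 8.12 and 7.98 at P1, at 7.52, 6.78, 7.17 and 8.46 at P12, and at 9.10, 9.75 and 8.92 at P28 (log2 values, probe set 1418370_at). The 3 arrays of P28 were above all others, while P12 spread widely and overlapped P1. Its level rose by 1.77 ± 0.31 (log2 change ± SE) in P28 against P12 and by 1.22 ± 0.31 in P28 against P1 in limma's moderated test (adjusted p = 0.000838 and 0.0079), and its change of -0.55 ± 0.29 in P12 against P1 did not pass (adjusted p = 0.34). With the 3' to 5' difference as a covariate the change in P28 against P1 was 0.84 and no longer passed (adjusted p = 0.155).

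Tnnc2, the calcium-binding subunit of fast fibres, was at 11.31, 11.95, 11.48 and 11.69 at P1, at 11.93, 11.36, 11.10 and 12.31 at P12, and at 12.83, 13.19 and 12.89 at P28 (1417464_at). The P12 arrays spread to both sides of the P1 arrays, and all P28 arrays lay above both ages. The level rose by 1.29 ± 0.25 in P28 against P12 (adjusted p = 0.00139) and by 1.36 ± 0.25 in P28 against P1 (adjusted p = 0.000727) in limma, which is 2.45-fold and 2.57-fold. The change of 0.07 ± 0.23 in P12 against P1 did not pass (adjusted p = 0.925).

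Tnni1, the inhibitory subunit of slow fibres, was at 7.17, 7.35, 7.67 and 7.49 at P1, at 6.86, 6.58, 7.27 and 7.61 at P12, and at 7.61, 8.57 and 7.76 at P28 (1450813_a_at). The 3 ages overlapped, and P28 replicate 2 stood above all others. In P28 against P12 it rose by 0.90 ± 0.25 in limma (adjusted p = 0.0157), the smallest change among the troponins that passed upward there. That call ended without P28 replicate 2 (0.61, adjusted p = 0.0875) and with the 3' to 5' covariate (0.40, adjusted p = 0.324). The values of 0.56 ± 0.25 in P28 against P1 and -0.34 ± 0.23 in P12 against P1 did not pass (adjusted p = 0.101 and 0.501). With array set as a block, P28 against P1 passed (adjusted p = 0.0459 in limma).

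Tnni2, the inhibitory subunit of fast fibres, had 2 bright probe sets. On 1416889_at it was at 8.74, 8.89, 9.06 and 9.31 at P1, at 8.85, 8.01, 8.70 and 9.95 at P12, and at 11.68, 12.40 and 11.93 at P28. On 1438609_x_at it was at 10.28, 10.60, 10.29 and 10.29 at P1, at 10.55, 9.88, 9.75 and 10.83 at P12, and at 12.02, 12.36 and 11.90 at P28. On both, the 3 P28 arrays stood clear of all others, and P12 replicate 4 was the highest of the earlier arrays. In P28 against P12 the first rose by 3.13 ± 0.33 and the second by 1.84 ± 0.23 in limma (adjusted p = 1.5e-05 and 5.33e-05), so the probe sets gave the same direction and different sizes, 8.74-fold and 3.58-fold. Relative to P1 they rose by 3.01 ± 0.33 and 1.73 ± 0.23 (adjusted p = 1.3e-05 and 5.94e-05). Probe sets with the _x_at suffix can hold probes that also match other transcripts, per the manufacturer's naming. The third probe set, 1438608_at, stayed between 3.68 and 4.11 on all arrays, close to the Trp controls, and did not pass in any comparison (adjusted p = 0.751 to 0.957).

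Tnnt1, the tropomyosin-binding subunit of slow fibres, was at 10.32, 10.31, 9.83 and 9.99 at P1, at 8.90, 9.90, 9.60 and 9.43 at P12, and at 9.92, 10.17 and 9.92 at P28 (1419606_a_at). P12 was the lowest age, and its arrays lay below all P28 arrays and overlapped P1. The change of -0.66 ± 0.19 in P12 against P1 did not pass in limma (adjusted p = 0.0644), nor did 0.55 ± 0.20 in P28 against P12 (adjusted p = 0.0581). P28 against P1 gave -0.11 ± 0.20 (adjusted p = 0.713).

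Tnnt2, the cardiac and developmental troponin T, had 2 bright probe sets that ran together. On 1424967_x_at it was at 9.66, 10.13, 10.23 and 10.23 at P1, at 8.53, 9.38, 9.35 and 8.98 at P12, and at 8.44, 8.59 and 8.76 at P28. On 1418726_a_at it was at 9.49, 10.11, 9.89 and 9.94 at P1, at 8.59, 9.33, 9.16 and 8.77 at P12, and at 8.29, 8.42 and 8.61 at P28. All P12 arrays lay below all P1 arrays, and P28 overlapped the lowest array of P12. In P12 against P1 the level fell by 1.00 ± 0.19 and by 0.89 ± 0.17 in limma (adjusted p = 0.00901 and 0.0114), about 2.00-fold and 1.85-fold. Within array sets 1 and 2 the changes were -0.94 and -1.06 for the first and -0.84 and -0.94 for the second, each from 2 arrays against 2 and none of them past the threshold (adjusted p = 0.0577 to 0.168). Relative to P1, the P28 level fell by 1.46 ± 0.20 and 1.41 ± 0.19 (adjusted p = 9.28e-05 and 6.4e-05). The changes in P28 against P12, -0.46 ± 0.20 and -0.52 ± 0.19, did not pass (adjusted p = 0.105 and 0.0504). With replicate number as a block both passed (-0.45 and -0.54, adjusted p = 0.0423 and 0.0174 in limma). The numbers do not pair P28 with the other ages and were not shown to pair P1 with P12. The second also passed with array set as a block, array weights, trend and robust options or dim probe sets left out (adjusted p = 0.0425 to 0.0492 in limma). Without P12 replicate 1 both passed (-0.64 and -0.65, adjusted p = 0.0198 and 0.0226), and the second also without P1 replicate 1 or P12 replicate 4 (adjusted p = 0.0346 and 0.0441).

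The third probe set of Tnnt2, 1440424_at, was at 4.80, 4.88, 4.67 and 5.03 at P1, at 4.43, 4.66, 4.95 and 4.33 at P12, and at 3.37, 3.56 and 3.51 at P28. It was dim at every age and at the level of the Trp controls at P28, which leaves the size of its fall uncertain. It fell by 1.11 ± 0.15 in P28 against P12 and by 1.36 ± 0.15 in P28 against P1 in limma (adjusted p = 0.000122 and 1.5e-05), and -0.25 ± 0.14 in P12 against P1 did not pass (adjusted p = 0.382).

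Tnnt3, the troponin T of fast fibres, was at 9.42, 9.71, 9.68 and 9.73 at P1, at 9.80, 8.63, 9.22 and 10.18 at P12, and at 12.06, 12.46 and 12.17 at P28 (1450118_a_at). The P28 arrays lay far above the highest earlier array, P12 replicate 4. It rose by 2.77 ± 0.27 in P28 against P12 and by 2.60 ± 0.27 in P28 against P1 in limma (adjusted p = 8.2e-06 and 8.32e-06). Its change in P12 against P1 was -0.17 ± 0.25 (adjusted p = 0.799). The increase in P28 against P12 exceeded in size the change of 99.6% of all probe sets, and that of Tnni2 on 1416889_at exceeded 99.7%.

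**Figure D2:**
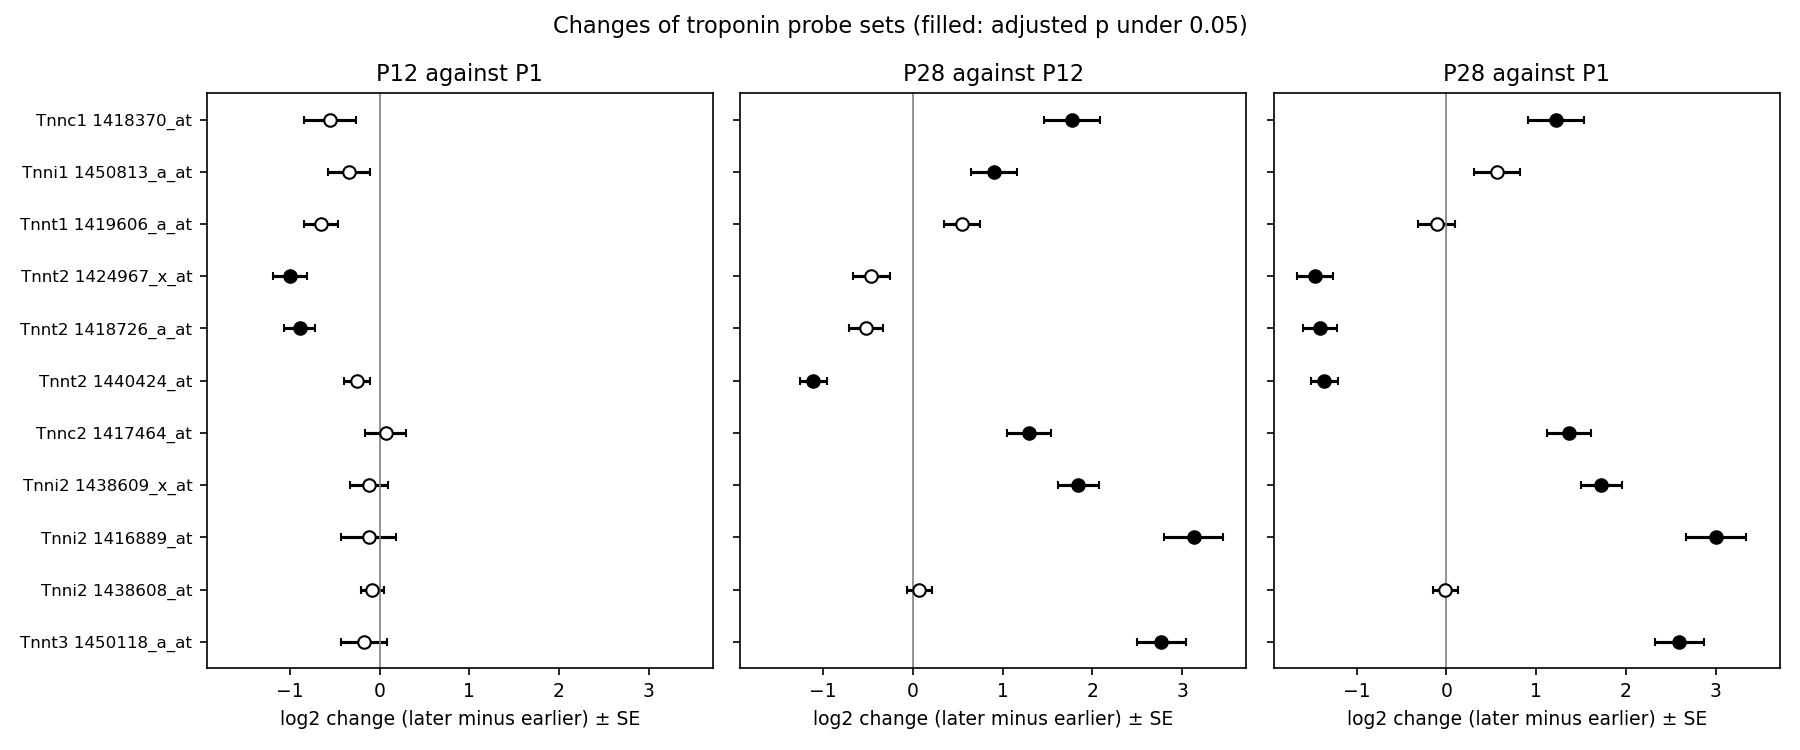
Log2 change, later minus earlier age, with its SE from limma (x axis) for each troponin probe set (y axis) in the 3 comparisons. Filled circles passed at an adjusted p under 0.05: 2 in P12 against P1, 7 in P28 against P12 and 8 in P28 against P1.

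Counted by isoform, 4 of 5 fast, 2 of 3 slow and 0 of 3 Tnnt2 probe sets rose in P28 against P12, and 1 Tnnt2 probe set fell. Over all probe sets 13.5% rose and 15.9% fell in this comparison, against 6 and 1 of the 11 troponin probe sets. Relative to P1, 4 of 5 fast and 1 of 3 slow probe sets rose and 3 of 3 Tnnt2 probe sets fell at P28, where 17.6% of all rose and 17.4% fell. At an unadjusted p under 0.05, 3 of 11 troponin probe sets would pass in P12 against P1 in limma, against 18.7% of all probe sets. The P28 arrays were all higher than the P12 arrays on 6 troponin probe sets, against 15.4% of all probe sets, and all lower on 1, against 19.9%. Relative to P1 they were all higher on 5, against 19.3% of all, and all lower on 3, against 21.4%. The P12 arrays were all higher than the P1 arrays on 0, against 6.18% of all, and all lower on 2, against 4.16%. The median change of the 7 genes, each by its brightest probe set, was -0.34 in P12 against P1, 1.29 in P28 against P12 and 1.22 in P28 against P1, and over all genes it was 0.02, -0.03 and -0.02. By brightest probe set, 5 of 7 genes rose and 0 fell in P28 against P12 (15.5% and 15.4% of all genes). In P28 against P1, 4 rose and 1 fell (19.9% and 16.3% of all genes). In P12 against P1, 0 rose and 1 fell (3.94% and 1.85% of all genes). The comparisons share arrays, and Tnni2 and Tnnt2 enter with 3 probe sets each, so the counts are not independent of each other.

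The difference between the slow and the fast gene of a subunit was followed within each array. This cancels only a factor that shifts both probe sets equally. With the 3' to 5' covariate in P28 against P12, Tnni1 went from 0.90 to 0.40 and Tnni2 on 1438609_x_at from 1.84 to 1.83. Tnnt1 went from 0.55 to 0.70 and Tnnt3 from 2.77 to 2.40, and Tnnc1 from 1.77 to 1.41 and Tnnc2 from 1.29 to 1.27. The 3' to 5' difference can thus remain in the pairs. The difference of a pair says whether it changed unequally and nothing about which gene is more abundant. For troponin T, Tnnt1 minus Tnnt3 was 0.90, 0.60, 0.16 and 0.26 at P1, -0.90, 1.26, 0.38 and -0.76 at P12, and -2.14, -2.30 and -2.24 at P28 on the log2 scale. It was lower on every P28 array than on any earlier one, and the P12 arrays fell on both sides of P1. The difference changed by -2.71 ± 0.18 in P28 against P1 and by -2.22 ± 0.51 in P28 against P12 (SE), each with p = 0.0286 in a two-sided exact permutation test, the smallest these numbers of arrays allow. After adjustment over the 9 tests of 3 pairs and 3 comparisons both had an adjusted p of 0.0643 in the exact permutation test, so neither passed. With this smallest p, arrays that separate fully cannot pass unless most of the 9 tests reach it, so not passing says little here.

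For troponin I, Tnni1 minus Tnni2, with Tnni2 read by its brightest probe set 1438609_x_at, was -2.95 ± 0.28 at P1, -3.17 ± 0.50 at P12 and -4.11 ± 0.31 at P28 (mean ± SD of 4, 4 and 3 arrays). The P28 arrays were below all P12 and P1 arrays, with a change of -0.94 ± 0.31 in P28 against P12 and -1.16 ± 0.23 in P28 against P1 (SE, exact permutation p = 0.0571 and 0.0286, adjusted p = 0.103 and 0.0643). With 1416889_at in its place, an alternative added after the data were seen, the changes were larger, -2.23 ± 0.24 and -2.44 ± 0.13 (exact permutation p = 0.0286 and adjusted p = 0.0514 for both). For troponin C the pair moved differently. Tnnc1 minus Tnnc2 was -3.57 ± 0.15 at P1, -4.19 ± 0.35 at P12 and -3.71 ± 0.26 at P28 (mean ± SD, arrays as before). Here the P12 arrays were below all P1 arrays, by 0.62 ± 0.19 on average (exact permutation p = 0.0286, adjusted p = 0.0643). P28 against P1 gave -0.14 ± 0.17 (exact permutation p = 0.343, adjusted p = 0.441). No pair passed after adjustment, with the limit given above for troponin T.

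**Figure D3:**
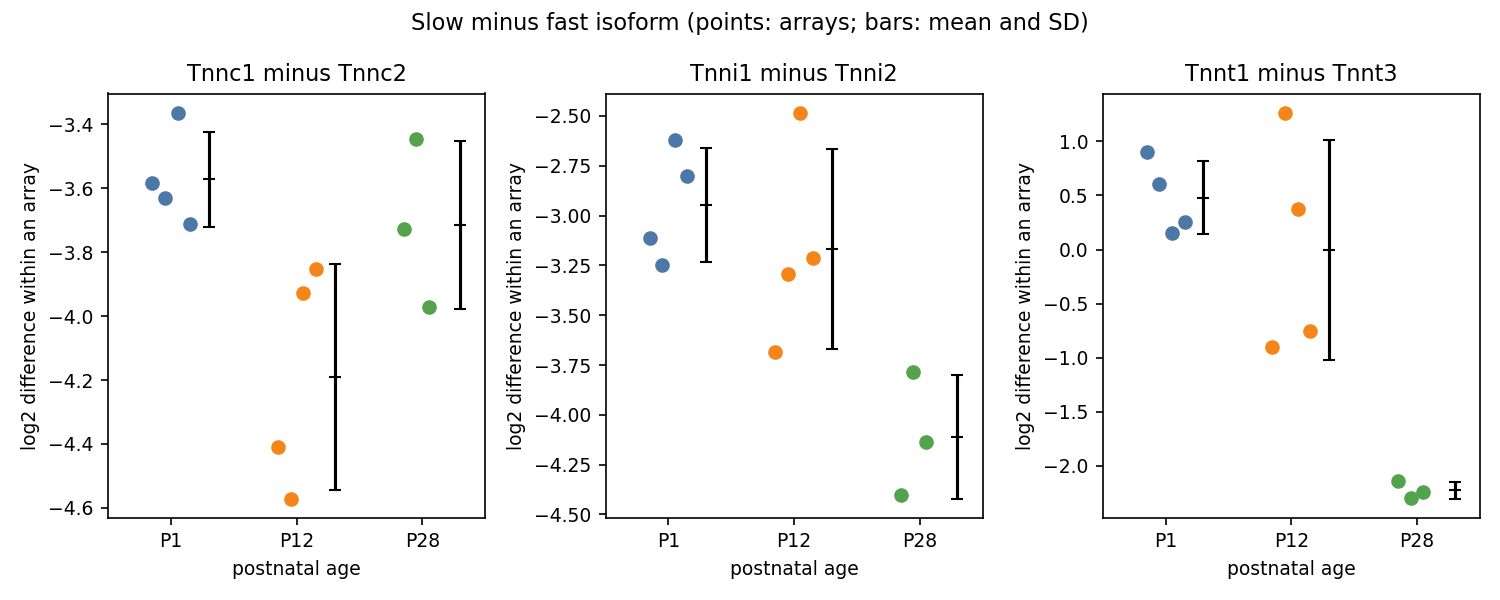
Log2 difference between the slow and the fast troponin gene within an array (y axis, a scale of its own in each panel) at P1, P12 and P28 (x axis). Points are arrays, and bars give the mean and SD. The Tnnt1 minus Tnnt3 values of P28 lie between -2.30 and -2.14, below all earlier arrays, and the Tnnc1 minus Tnnc2 values of P12 lie below all P1 arrays.

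The P12 arrays differed among themselves. P12 replicate 4 had the highest P12 value of Tnnc1, Tnnc2, Tnni1, Tnnt3 and both bright Tnni2 probe sets, and P12 replicate 2 or 3 had the lowest. Tnnt1 and the bright Tnnt2 probe sets had their highest P12 value in replicate 2 and their lowest in replicate 1. Deviations from the age means of Tnnt3 and Tnnc1 correlated at 0.90 over the 11 arrays and those of Tnnc1 and Tnnc2 at 0.86, while those of Tnnt3 and Tnnt1 correlated at -0.57. These are descriptions of the same arrays. A list of 15 other fast fibre genes averaged 8.75, 7.93, 8.05 and 8.90 over P12 replicates 1 to 4, so it was also highest in replicate 4 and lowest in replicate 2. The 12 satellite cell markers averaged 10.12, 10.17, 9.90 and 10.11 on these arrays. The part of fibre RNA in the spread of the troponins was not tested.

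**Figure D4:**
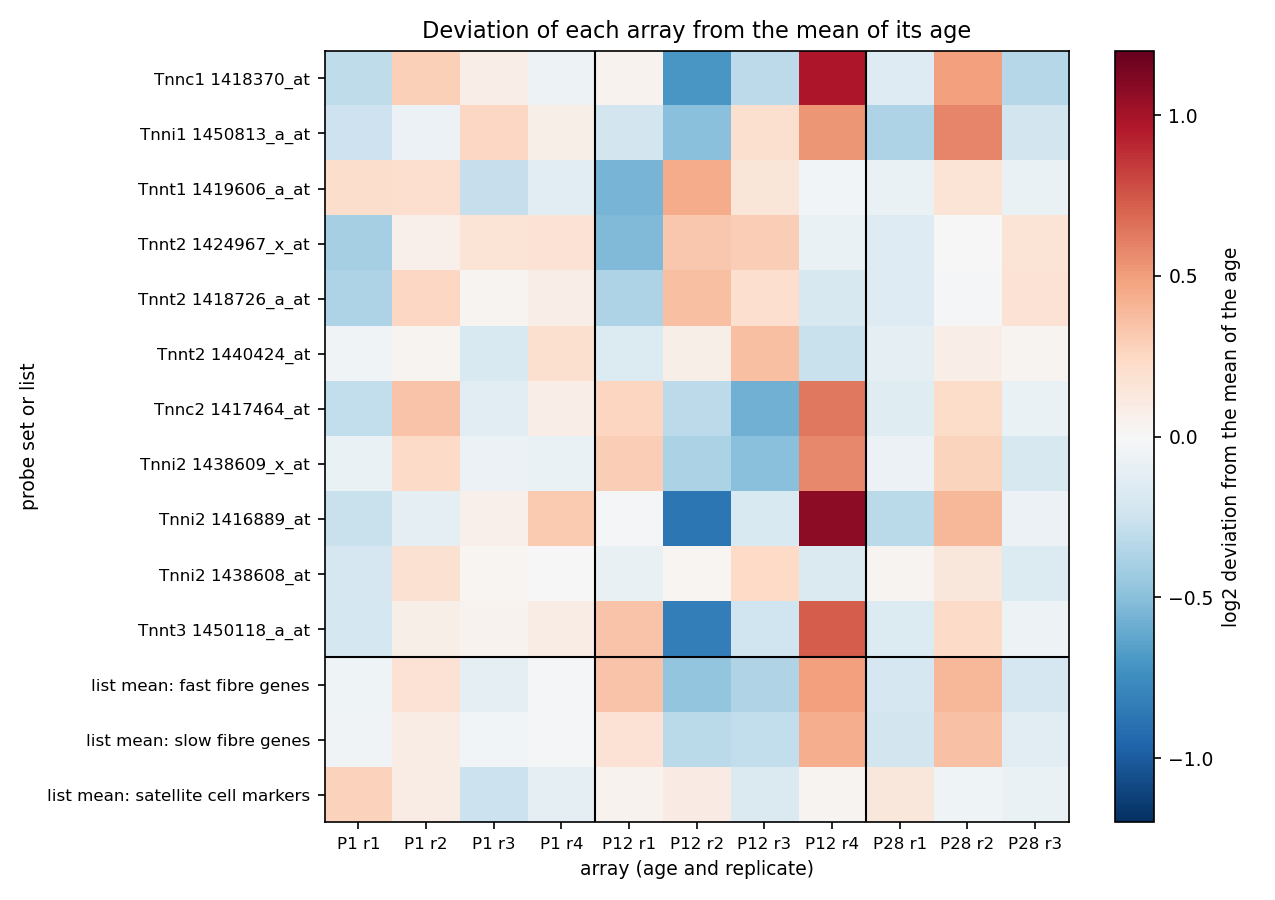
Deviation of each array from the mean of its age (colour, log2 scale) for the troponin probe sets and the means of the fast fibre, slow fibre and satellite cell marker lists (rows) on the 11 arrays (columns, r for replicate). P12 replicate 4 is above and P12 replicate 2 below the P12 mean in the bright fast troponin probe sets and in Tnnc1, Tnni1 and the fibre lists, while Tnnt1 and the bright Tnnt2 probe sets are above it in replicate 2.

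The genes most like each troponin were taken by Pearson correlation over all 11 arrays, among 2630 genes with an SD of at least 0.5, and are given as a description, since the ages themselves set much of the likeness. For Tnnt3 they were Eno3, Ckm, Myoz1, Myh7 and Myl1 (r = 0.990 to 0.995), which encode a muscle enolase, muscle creatine kinase, a Z-disc protein, the slow myosin heavy chain and a fast myosin light chain. For Tnni2 they were Acta1, Eno3, Myot, Ckm and Tnnt3 (0.98 to 0.99). For Tnnc2 they were Mylpf, Tnni2, Lmod3, Tpm1 and Acta1 (0.96 to 0.99). For the slow genes they were Trim54, Fabp3, Myl1, which is also in the list of Tnnt3, Asb12 and Csrp3 for Tnnc1 (0.95 to 0.98), and Cav3, Art1, Itgb1bp2, Trim54 and Ccdc3 for Tnni1 (0.90 to 0.96). Tnnt1 was the least matched, with Asxl3, 2410006H16Rik, Mybpc1, Zfp945 and Clec4d at 0.86 to 0.89. Mybpc1 encodes the slow form of myosin-binding protein C. For Tnnt2 the genes were Dync1i1, Egfl6, Prelid2, Dcx and Bdnf (0.96 to 0.98). Deviations from the age means, which leave the ages out, correlated at 0.86 to 0.98 for the genes of Tnnt3 and Tnni2 and at 0.66 to 0.77 for those of Tnnt1.

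Some troponin genes are neighbours. In the RefSeq gene table Tnni2 and Tnnt3, which encode the fast I and T subunits, lie on the same chromosome with 2 genes between them, and both rose in P28 against P12 (3.13 on 1416889_at and 1.84 on 1438609_x_at for Tnni2, and 2.77 for Tnnt3). Tnni1 and Tnnt2 lie with 1 gene between them. In the same comparison Tnni1 rose by 0.90, and the bright Tnnt2 probe sets, at -0.46 and -0.52, did not pass. Tnnt1 lies beside Tnni3, the cardiac troponin I, with 0 genes between them. Tnni3 was near the background at 4.23, 4.16 and 4.62 on average at P1, P12 and P28 and did not pass in any comparison (limma adjusted p = 0.889, 0.0505 and 0.078).

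The partners of troponin on the thin filament were followed as 13 genes, Tnni3 among them, each by its brightest probe set. In P28 against P12, 6 of 13 rose and 0 fell, where 15.5% of all genes rose and 15.4% fell, with a median change of 0.46. Tmod4, a cap of the pointed end of actin in muscle, rose by 3.04 ± 0.35, Lmod2, an actin nucleator, by 2.34 ± 0.22 and skeletal actin Acta1 by 2.21 ± 0.27. The tropomyosins Tpm1 and Tpm2, strands that troponin T holds, rose by 1.05 ± 0.18 and 0.77 ± 0.18, and Tpm3, the slow form, was at 0.01 ± 0.14 and did not pass. Between P1 and P12 fewer partners moved: Lmod2 rose by 2.86 ± 0.20 and Tmod1 by 0.63 ± 0.15 in P12, which makes 2 of 13, and 0 fell, where 3.94% of all genes rose and 1.85% fell. Against P1, 7 of 13 rose and 0 fell at P28, where 19.9% of all genes rose and 16.3% fell. Lmod2 rose by 5.19 ± 0.22 there, Tmod4 by 3.48 ± 0.35 and Acta1 by 2.01 ± 0.27. Lmod2 averaged 4.59 at P1, below the value of 5 used here as a limit for dim probe sets, so the sizes of its changes against P1 are uncertain.

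Other fibre genes give a context for the slow and fast troponins. Of 15 fast fibre genes, 8 rose in P12 against P1 (median change 0.87) and 0 fell. All 15 rose in P28 against P12 (2.58) and in P28 against P1 (3.18). In the same order, 3.94%, 15.5% and 19.9% of all genes rose and 1.85%, 15.4% and 16.3% fell. The fast myosin Myh4 rose by 3.32 ± 0.40 in P12 against P1 and by 4.25 ± 0.44 in P28 against P12, and the calcium buffer Pvalb by 3.29 ± 0.27 and 4.40 ± 0.29. Another fast myosin, Myh1, rose by 1.62 ± 0.17 in P12 against P1. Muscle creatine kinase Ckm rose by 3.96 ± 0.34 in P28 against P12. Over the whole span, P28 against P1, Pvalb rose by 7.69 ± 0.29, Myh4 by 7.57 ± 0.44 and Mybpc2, the fast myosin-binding protein C, by 4.62 ± 0.32. Myh4 and Pvalb were at 3.73 and 5.18 at P1, near the background, so the sizes of their changes are uncertain. In the same comparison, P12 against P1, 0 of 5 fast troponin probe sets passed, and the difference from this list was not tested.

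Of 14 slow fibre genes, 0 rose and 2 fell in P12 against P1 (median change -0.13). In P28 against P12, 10 rose and 0 fell (1.39), and in P28 against P1, 9 rose and 0 fell (1.35). Among all genes, 3.94%, 15.5% and 19.9% rose and 1.85%, 15.4% and 16.3% fell in these comparisons. The Z-disc gene Myoz2 fell by 1.10 ± 0.24 and the myosin light chain Myl6b by 0.71 ± 0.13 in P12. The slow myosin Myh7 rose by 3.09 ± 0.23 in P28 against P12, the mitochondrial creatine kinase Ckmt2 by 2.87 ± 0.34 and myoglobin (Mb) by 2.73 ± 0.32. Against P1, Mb rose by 3.68 ± 0.32, the slow light chain Myl2 by 2.89 ± 0.26 and Myh7 by 2.72 ± 0.23 at P28.

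Genes of developing muscle, most of them of the sarcomere, went both ways. Of 7, 1 rose and 2 fell at P12 relative to P1, where 3.94% of all genes rose and 1.85% fell. At P28 2 rose and 3 fell relative to P12, where 15.5% of all genes rose and 15.4% fell. Relative to P1, 2 rose and 4 fell at P28, where 19.9% of all genes rose and 16.3% fell. The perinatal myosin Myh8 fell by 1.93 ± 0.22 in P12 against P1, by 1.64 ± 0.24 in P28 against P12 and by 3.57 ± 0.24 in P28 against P1. The embryonic myosin Myh3 changed by -0.76 ± 0.18, -1.32 ± 0.20 and -2.07 ± 0.20 in the same order, each past the threshold. Chrng, the fetal acetylcholine receptor subunit, fell by 0.81 ± 0.17 in P28 against P12, and the atrial and embryonic light chain Myl4 by 0.69 ± 0.26 in P28 against P1. Ankrd1 rose by 1.48 ± 0.15, 1.56 ± 0.17 and 3.04 ± 0.17 in the 3 comparisons. Mybph rose by 0.93 ± 0.28 in P28 against P12 and by 1.14 ± 0.28 in P28 against P1.

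Of 20 regulators of fibre type, 4 rose at P12 relative to P1 and 0 fell, where 3.94% of all genes rose and 1.85% fell. The largest increases were those of Six4 (1.10 ± 0.21), Prox1 (1.06 ± 0.18) and Myog (0.90 ± 0.20), and Tead1, a factor of the MCAT motif, rose by 0.49 ± 0.13. Relative to P12, 2 rose and 4 fell at P28, near the 15.5% and 15.4% of all genes that did so, and nothing is read from these counts about the list. The calcineurin-responsive factors Nfatc1 and Nfatc2 rose by 1.33 ± 0.24 and 1.22 ± 0.22, and Vgll2, a partner of TEAD factors, fell by 1.08 ± 0.17, Tead4 by 0.86 ± 0.18 and Eya1 and Tead1 by 0.56 ± 0.14 and 0.56 ± 0.14. Relative to P1, 5 rose and 4 fell at P28, also near the 19.9% and 16.3% of all genes, with the largest changes in Nfatc1 (1.97 ± 0.24), Nfatc2 (1.05 ± 0.22), Mef2c (0.82 ± 0.27), Vgll2 (-0.95 ± 0.17), Eya1 (-0.91 ± 0.14) and Tead4 (-0.59 ± 0.18).

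Some markers of other cell types were also higher at P28, and others did not pass. In P28 against P12, 6 of 6 endothelial, 4 of 6 fibroblast, 5 of 8 smooth muscle and pericyte, 3 of 6 leukocyte, 0 of 3 Schwann cell and 4 of 12 satellite cell markers rose, and 0 fell, where 15.5% of all genes rose and 15.4% fell. Against P1, 6 of 6 endothelial, 3 of 6 fibroblast, 6 of 8 smooth muscle and pericyte, 2 of 6 leukocyte, 0 of 3 Schwann cell and 4 of 12 satellite cell markers rose at P28 and 1, the pericyte marker Cspg4, fell, where 19.9% of all genes rose and 16.3% fell. The array means of the endothelial list ran from 7.75 to 8.46 at P28, against 5.75 to 6.48 at P12, and those of the fibroblast list from 10.63 to 11.29 at P28, against 9.12 to 9.57 at P12. The smooth muscle and pericyte list ran from 9.11 to 9.26 at P28, against 8.05 to 8.35 at P12, the leukocyte list from 6.66 to 7.40 at P28, against 5.92 to 6.12 at P12, and the Schwann list from 6.65 to 7.33 at P28, against 6.98 to 7.08 at P12. In level, Kdr, Tek and Cdh5 led the endothelial list and rose by 1.64 ± 0.22, 1.58 ± 0.25 and 2.58 ± 0.34. Col3a1, Col1a1 and Dcn led the fibroblast list, and of these only Dcn passed (2.39 ± 0.20). Acta2, Tagln and Des led the smooth muscle list, where Des is also a muscle fibre gene, Csf1r, Tyrobp and Cd68 the leukocyte list and Mbp, Sox10 and S100b the Schwann list. In P12 against P1, where Tnnt2 fell, 0 endothelial and 0 Schwann cell markers passed. The fibroblast markers Thy1 and Pdgfra changed by 1.33 ± 0.27 and -1.45 ± 0.29, the pericyte and smooth muscle markers Rgs5, Acta2 and Cspg4 by 1.07 ± 0.25, 0.69 ± 0.17 and -0.74 ± 0.15, and the leukocyte marker Cd68 by -1.38 ± 0.22, and each of these passed, as did 3 satellite cell markers that rose and 1 that fell, where 3.94% of all genes rose and 1.85% fell. The part of other cells in the P12 and P28 values was not tested.

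Heart markers bear on Tnnc1 and Tnnt2, which the heart also uses. Of 10 cardiomyocyte markers, 7 at P1, 8 at P12 and 8 at P28 averaged below a log2 value of 5, and the array means of the list ran from 4.37 to 4.56, from 4.34 to 4.51 and from 4.57 to 4.81. In P28 against P12, where 15.5% of all genes rose and 15.4% fell, 3 of 10 rose and 0 fell. Those that rose were Myl7 (1.08 ± 0.16), Myh6 (0.91 ± 0.28) and Nppa (0.73 ± 0.13). These 3 averaged 4.50, 4.62 and 4.44 at P28, so they stayed dim. In P28 against P1 the same 3 rose, by 1.03 ± 0.16, 1.32 ± 0.28 and 0.58 ± 0.13, and 1, Nppb, fell by 0.49 ± 0.12, against 19.9% and 16.3% of all genes. None passed in either direction at P12 relative to P1 (0 of 10), where 3.94% of all genes rose and 1.85% fell. Nppb was at 5.37, 5.22 and 4.89 at P1, P12 and P28, Tbx5 at 5.29, 5.05 and 5.14 and Nkx2-5 at 5.02, 4.88 and 5.09. Gata4 (4.92, 4.87 and 4.72), Hand2 (4.97, 4.89 and 4.89) and Ryr2 (4.21, 4.10 and 3.99) were below 5 at all ages.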

How the data were processed

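RNA of 11 sorted samples was hybridised to Affymetrix 3' arrays, and the authors deposited log2 values per probe set. The submitters' processing notes name RMA, affy and Affymetrix Expression Console, with no version, role or order, and whether the ages were normalized together is not given in the sources used here. The values were used without further transformation. Of 45101 probe sets, 64 controls were left out. In the supplied annotation 34958 probe sets carried 1 symbol, 932 several and 9211 none. All 7 members were found in the RefSeq gene table.

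A group-mean model over all 11 arrays was fitted in limma 3.58.1 (R 4.3.3), and contrasts were moderated with eBayes (residual df 8, prior df 5.82). The test is two-sided, with Benjamini-Hochberg adjustment over 45037 probe sets, and a probe set rose or fell at an adjusted p under 0.05. It was tested on simulated data. Other genes were read in this fit by their brightest probe set. Slow minus fast differences were tested by exact permutation. Replicate numbers were checked by correlating deviations from the age means. For P12 and P1 all 4 same-numbered pairs were above 0.1 (0.143 to 0.311), and for P28 they were not (-0.122 to 0.0931). Different-numbered pairs of P12 and P1 within an array set gave similar values (0.140 to 0.247), and pairs across the sets were negative (-0.286 to -0.113). The values thus followed the array set and do not show that the numbers pair P1 with P12. The fit with replicate number as a block changed no call in P12 against P1. Named from the lists were the 3 largest changes in each direction that passed, and, chosen after their values were seen, Tpm1, Tpm2, Tpm3 and, for its motif, Tead1. From marker lists of other cell types the 3 highest in level were named, and for the heart all 10. The markers of these lists that passed in P12 against P1 were also named, a choice by outcome. Members and lists were chosen with earlier results of these data known. The alternatives were centring, quantile normalization, dim probe sets left out (kept at 5 or more on at least 3 arrays), 1 value per gene, other moderation, array weights, blocks, the 3' to 5' covariate and leaving out each array. Arrays give no read depth, and their number limits the precision.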

Additional observations from a re-analysis of the deposited data

Results flagged for a closer look

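In groups of 4 arrays, an array was singled out where its gap to the nearest other array made up more of the group's range than Dixon's critical value. Of 22 groups tested, 2 held such an array, and chance alone gives about 5 in 100. Tnni2 on 1438609_x_at was at 10.60 in P1 replicate 2, against 10.28 to 10.29 in the other P1 arrays (ratio 0.97). Tnnt3 was at 9.42 in P1 replicate 1, against 9.68 to 9.73 in the other P1 arrays (ratio 0.839). No call of either probe set ended without these arrays.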

How the results depend on the processing

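Of 718 values of single probe sets under alternatives, 673 kept their direction and their side of the threshold, 7 lost and 23 gained a call, and 15 changed sign. None of the changes of sign concerned a value that passed. They were Tnnc2 in P12 against P1 after quantile normalization (-0.23) and without single arrays (range -0.14 to 0.26), Tnni2 on 1416889_at (0.14) and Tnnt3 (0.0017) there within array set 2, Tnni2 on 1438609_x_at (-0.31 to 0.051) and 1416889_at (-0.48 to 0.17) and Tnnt3 (-0.41 to 0.10) there without single arrays, Tnnt1 in P28 against P1 with the 3' to 5' covariate (0.056), and the dim Tnni2 probe set 1438608_at in P28 against P1 after median centring (0.028), quantile normalization (0.080) and without single arrays (-0.080 to 0.071). The cause was not tested.

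The troponin probe sets that fell in P28 against P12 numbered 1, and 0 with 1 probe set per gene (fewer probe sets tested), 2 with trend and robust options, array weights or array set as a block, 3 with replicate number as a block, and 1 to 3 without single arrays. In P28 against P1 they numbered 3, and 1 with 1 probe set or the mean of the probe sets per gene. In P12 against P1 they numbered 2, 0 within either array set, where fewer arrays enter, and 2 to 3 without single arrays. The number that rose in P28 against P12 was 5 to 7 without single arrays. Tnnt1 passed in P12 against P1 after quantile normalization (-0.86), without P12 replicate 2 (-0.80), with dim probe sets left out, with 1 value per gene and with trend and robust options (-0.66 in each). In P28 against P12 it passed after median centring (0.57, adjusted p = 0.0461), with dim probe sets left out (0.0458), with trend and robust options (0.044), with array weights (0.59, 0.041) and without P12 replicate 2 (0.69, 0.0189), by limma's adjusted p. Those that rose in P28 against P1 numbered 5, and 6 with array set as a block, where Tnni1 passed. The replicate block changed no call in P12 against P1 (2 fell). For the slow minus fast pairs the array numbers set the smallest p, so their adjusted p of 0.0643 says nothing about stability. The pair with the other bright Tnni2 probe set, chosen after seeing the data, kept its direction and did not pass in any comparison (-0.22 in P12 against P1).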
